A study of Homo sapiens with 24 samples.

Results

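The DDX and DHX genes encode RNA helicases, enzymes that use ATP to unwind RNA duplexes or to remodel complexes of RNA and protein. Most DDX proteins carry the DEAD-box motif and mostly open short duplexes locally. Most DHX proteins carry the related DEAH-box motif and can move along a strand. They act at most steps in the life of an RNA, among them ribosome assembly, splicing, nuclear export, translation and decay. The data analysed here describe the mRNAs of these genes as carriers of N1-methyladenosine (m1A), a methyl mark that blocks the base-pairing edge of adenosine and that the demethylase ALKBH3 can remove. Members were the protein-coding genes of the RefSeq table whose symbol starts with DDX or DHX followed by a digit, 54 genes in all. Of these, 40 had a peak in at least 1 of the 10 peak lists, out of 9319 genes with a peak. The members held 305 of the 61237 peaks, on 66 transcripts.

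The study mapped m1A in HEK293T cells, an established human embryonic kidney line, grown in medium with 10% serum. Polyadenylated RNA was enriched with an anti-m1A antibody (IP) and reverse-transcribed with AMV reverse transcriptase. WT denotes wild-type cells and KO the same line with ALKBH3 knocked out, for which the labels do not say whether it is 1 clone. UT denotes wild-type cells of the stress experiment left untreated, H2O2 those given 50 µM hydrogen peroxide for 30 min, and Starve those kept for 16 h in medium lacking serum. Each condition had 2 replicates of input and IP libraries, and WT and KO also had IP libraries treated with a demethylase, 24 libraries in 12 groups. The labels do not say that replicates were separate cultures, so their spread may be technical.

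A peak is a stretch of a transcript where IP reads pile up above the local background, and its fold enrichment is the authors' deposited value. A region is a set of overlapping peaks on 1 transcript, and it counts as repeated when both lists of a condition hold it. Positions are nucleotides (nt) counted from the transcript start, and exons or untranslated regions are not given in the files. An uncalled region has no value, so absence means that no peak was called. Peaks depend on how much of an mRNA was present as well as on its methylation, and the lists cannot tell these apart. The lists held 2175 and 3410 peaks for WT, 3447 and 3524 for KO, 7871 and 9295 for UT, 7459 and 3903 for H2O2, and 11362 and 8791 for Starve. The median deposited fold over all peaks was 8.27 in H2O2 replicate 2 and between 3.62 and 6.64 in the other lists. ALKBH3 had 0 peaks in the 10 lists, so they cannot check the knockout. Of 8 marker genes of other cell types, 1 (COL1A1) had a peak, in both UT lists.

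Helicase mRNAs carried called peaks in 40 of 54 cases (74.1%), against 8841 of 20056 protein-coding genes (44.1%). Both sets include genes whether or not these cells express them. The lists hold no expression, so its part in this difference was not tested. Among genes with a peak, 11 of 40 helicases (27.5%) had one in 5 or more lists, against 25.1% of protein-coding genes. The 14 members without any peak were DDX3Y, DDX4, DDX20, DDX25, DDX39B, DDX43, DDX53, DDX60, DDX60L, DHX16, DHX29, DHX32, DHX35 and DHX58. They include all 3 of the germline list, among them DDX4 (VASA), a marker of germ cells, and all 3 of the innate immune list, among them DHX58, a relative of the viral RNA sensor RIG-I. DDX5 was the only member with a peak in 9 lists, the exception being Starve replicate 1. DDX46 and DDX51 had one in 7 lists, and DDX1, DDX3X, DDX42, DDX56 and DHX30 in 6. At the other end, DDX52 and DHX57 had peaks in 1 list each.

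**Figure D1:**
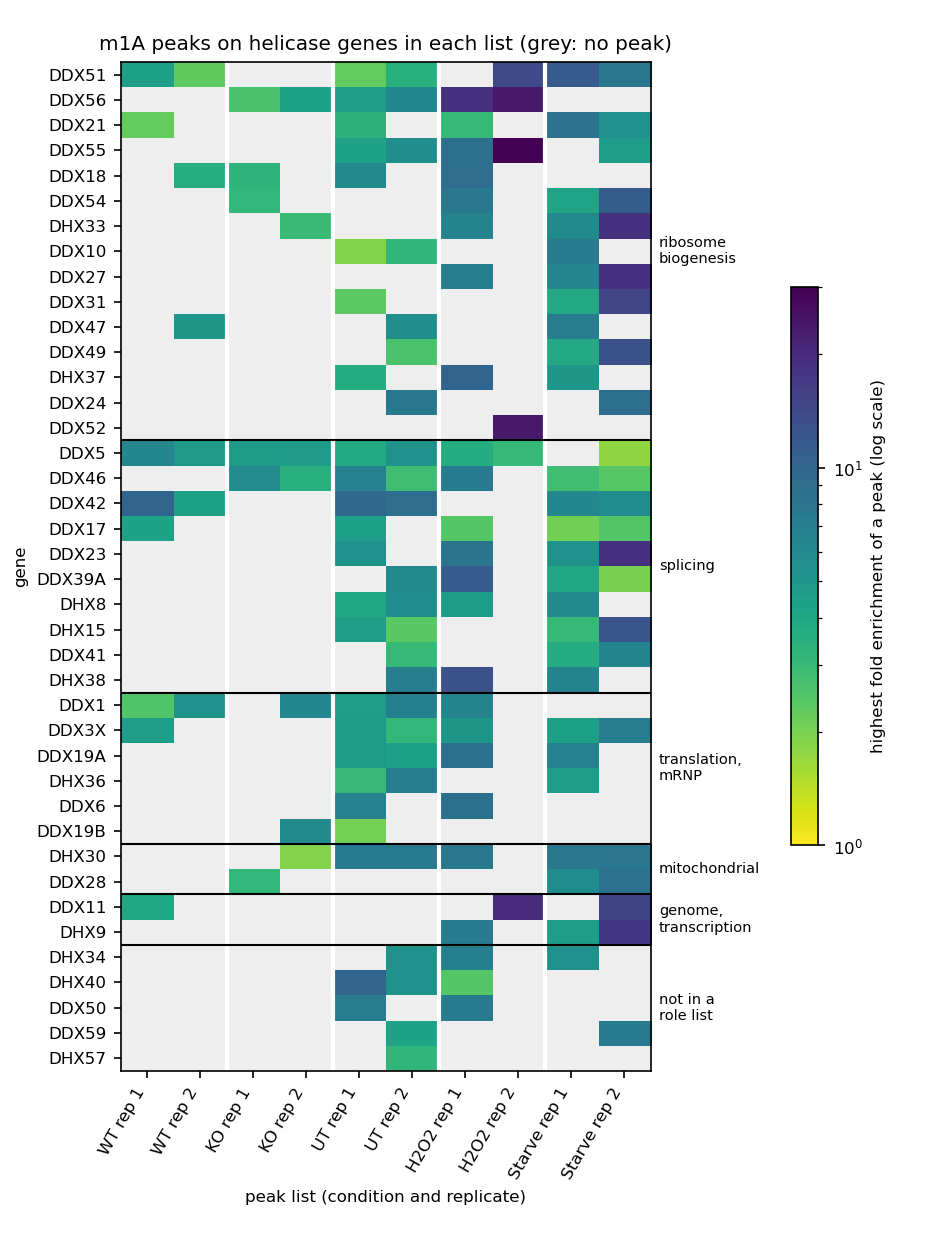
Highest fold enrichment of a peak on each of the 40 helicase genes with a peak (rows, grouped by role) in each of the 10 lists (columns), on a log colour scale; grey cells have no peak. Rows are mostly grey in WT and KO, with 10 genes each, and fuller in UT, H2O2 and Starve, with 33, 27 and 31 genes.

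By role, all 15 ribosome biogenesis helicases had a peak, and 4 of them (DDX21, DDX51, DDX55 and DDX56) in 5 or more lists. These enzymes remodel precursor ribosomal RNA in the nucleolus. In 12 of the 15 a peak was called in at least 1 Starve list, in 11 in UT, in 10 in H2O2, in 4 in WT and in 4 in KO. The same order by condition, with few genes in WT and KO, held over all 9319 genes with a peak, of which 69.1% had one in Starve, 64.8% in UT, 48.1% in H2O2, 28.7% in KO and 27.6% in WT. Of the 13 splicing helicases, 10 had a peak, and DDX5, DDX17, DDX42 and DDX46 had one in 5 or more lists. The 8 helicases of translation and messenger ribonucleoproteins gave 6 with a peak, of which DDX1 and DDX3X reached 5 or more lists. Both mitochondrial members, DDX28 and DHX30, which serve mitochondrial ribosome assembly, had peaks, and so did DDX11 and DHX9 among 3 genes of genome maintenance and transcription. The UT, H2O2 and Starve lists were longer than those of WT and KO, and the part of list length in these counts was not tested.

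The deposited folds of helicase peaks ranged from 1.47 for a DDX5 peak in UT replicate 2 to 29.76 for a DDX55 peak in H2O2 replicate 2. Their median, against that of all peaks, was 3.9 against 3.81 and 4.63 against 3.78 in WT. In KO it was 3.16 against 3.71 and 3.54 against 3.62, and in UT 4.2 against 3.9 and 5.49 against 4.16. In Starve it was 4.27 against 4.04 and 6.02 against 6.64, and in H2O2 replicate 1 it was 6.5 against 4.79. In H2O2 replicate 2 it was 19.61 against 8.27, but that list held 12 helicase peaks on 6 genes. Its members included DDX55 at 29.76, DDX52 at 23.62, DDX56 at 23.61 and DDX11 at 19.61, genes picked here after their values were seen. Pileup is the deposited coverage at a summit, and its median over helicase peaks is given beside that over all peaks. It was 51.0 against 56 and 52.0 against 44 in UT, and 87.0 against 76 and 250 against 178 in H2O2. In Starve it was 52.0 against 51 and 113.0 against 110. It was 70.5 against 67 and 81.0 against 113 in WT, and 97.5 against 119 and 97.0 against 111 in KO. The lowest pileup behind a helicase peak was 17, in UT replicate 2. Library totals are not in the files, so values of different lists are given side by side and no change is read from them.

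Most helicase peaks were not found again in the replicate. In WT, 3 of 10 helicase genes with a peak (30.0%) had a repeated region, against 24.8% of all genes. In KO it was 3 of 10 (30.0%), against 53.4% of all genes. In UT it was 6 of 33 (18.2%), against 14.5%, and in Starve 5 of 31 (16.1%), against 15.1%. In H2O2 it was 0 of 27, against 11.4% of all genes. By these counts of genes the helicases lay near the background in WT, UT and Starve and below it in KO and H2O2. There 10 and 27 genes leave wide room for counting error. Counted by region, 13.6% were repeated in WT, against 21.4% of all regions, and 22.2% in KO, against 51.2%. In UT it was 12.7% against 9.42%, in Starve 5.31% against 8.79%, and in H2O2 0.0% against 8.0%. By region, WT and Starve thus also lay below the background. Regions include isoforms that repeat a signal. A single list alone would give 8 and 6 genes in WT, 6 and 7 in KO, 24 and 24 in UT, 24 and 6 in H2O2, and 26 and 23 in Starve, so every count of repeated regions rests on both lists.

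Several helicases had peaks in both lists of a condition at different places. This was so for 13 genes in Starve, whose nearest summits lay 156 to 4064 nt apart (median 955.0 nt). In UT it was so for 9 genes, at 384 to 3469 nt (median 1056.0 nt). In H2O2 all 3 genes with a peak in both lists were of this kind: DDX56 at 166 nt, DDX5 at 392 nt and DDX55 at 516 nt. In WT it was DDX51 alone, at 218 nt. DHX33, a DEAH-box helicase of ribosome biogenesis, had the widest gap in Starve, and DDX46 the widest in UT. Over all 10 lists the helicase peaks fell into 221 regions, of which 166 (75.1%) were in a single list, against 73.5% of all 38299 regions. Those in 3 or more lists numbered 13 (5.88%), against 13% of all regions.

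A region was called in 6 lists on 4 members, DDX5, DDX42, DDX1 and DDX56, and no helicase region was in more. DDX5 (p68) is a splicing and transcription coregulator that also takes part in microRNA processing. On NM_004396 a region at nt 98 to 326 was called in all 6 lists of WT, KO and UT and in none of H2O2 or Starve. Its folds in WT were 6.2 and 4.8, those in KO 4.69 and 4.8, and those in UT 3.77 and 5.21. The 6 summits lay within 23 nt of their replicate, between nt 148 and nt 171, and the pileups were 340 and 390 in WT, 309 and 304 in KO, and 141 and 168 in UT. The KO peaks ended at nt 326 and 321, whereas those of WT ended at nt 225 and 221 and those of UT at nt 227 and 224. H2O2 and Starve lists had DDX5 peaks elsewhere: at nt 1469 to 1572 and nt 1863 to 1962 in the H2O2 lists, and at nt 771 to 870, with a fold of 1.75, in Starve replicate 2.

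DDX42, a helicase linked to the U2 small nuclear ribonucleoprotein in splicing, had a region at nt 1 to 189 of NM_007372 in all 6 lists of WT, UT and Starve. Its fold was 10.09 and 4.35 in WT, 9.61 and 8.92 in UT, and 4.24 and 5.67 in Starve. No peak was called on any DDX42 transcript in KO or H2O2. The pileups behind these peaks were 106 and 76 in WT, 105 and 74 in UT, and 54 and 78 in Starve. DDX42 also had further peaks in UT replicate 2 at nt 483 to 604 and in the Starve lists, none of which repeated.

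DDX46 (the human counterpart of yeast Prp5, which acts when the U2 particle joins the branch site) had a region at nt 28 to 225 of NM_014829 in both KO lists and H2O2 replicate 1. Its fold was 5.79 and 3.52 in KO and 7.37 in H2O2 replicate 1. Both KO summits lay at nt 114, the closest agreement among the repeated helicase regions, and the H2O2 summit lay at nt 102. Peaks of DDX46 in UT and Starve lay elsewhere, from nt 537 to nt 4334, and did not repeat. WT had no DDX46 peak.

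The sequences around the annotated starts of these 3 genes are shown because the repeated peaks of DDX42 and DDX46 begin at nt 52 or before, while those of DDX5 begin between nt 98 and nt 128. They come from RefSeq (GRCh38.p14), read 5′ to 3′, with the 50 bases before the start in lower case and the first 30 transcribed bases in capitals. The annotated start of this build may differ from nt 1 of the deposited transcripts. DDX42 lies at chr17:63774120-63774199 on the plus strand, DDX46 at chr5:134758729-134758808 on the plus strand, and DDX5 at chr17:64506609-64506688 on the minus strand.
DDX42: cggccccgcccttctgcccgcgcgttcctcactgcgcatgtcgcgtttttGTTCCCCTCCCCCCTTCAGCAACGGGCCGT
DDX46: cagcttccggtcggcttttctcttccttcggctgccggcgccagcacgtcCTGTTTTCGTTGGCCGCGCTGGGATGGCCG
DDX5: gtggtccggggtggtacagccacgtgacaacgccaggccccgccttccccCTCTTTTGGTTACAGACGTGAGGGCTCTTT

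The first 50 transcribed bases were 74.0% G or C in DDX42, 64.0% in DDX46 and 48.0% in DDX5. Over 49 helicases with a sequence in the table the median was 64.0% (quartiles 58.0% and 70.0%), the same median as over 15843 protein-coding genes (quartiles 56.0% and 72.0%). The 6 helicases with a repeated region whose summit lay within 300 nt of the start in a list had a median of 64.0%, and 13 members without a peak had 62.0%.

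DDX1, a helicase of RNA transport granules and transfer RNA ligation, had a region at nt 269 to 536 of NM_004939 in 6 lists. The fold was 2.51 and 5.26 in WT, 6.19 in KO replicate 2, 4.45 and 6.93 in UT, and 3.93 in H2O2 replicate 1. The 6 summits lay between nt 335 and nt 381. Neither Starve list held a DDX1 peak, and KO replicate 1 and H2O2 replicate 2 held none either.

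DDX56, a nucleolar helicase of large ribosomal subunit assembly, had its region far from the start, at nt 1964 to 2279 of NM_019082. It was called in both lists of KO, UT and H2O2 and in neither list of WT or Starve. The fold was 2.65 and 4.27 in KO, 4.53 and 6.31 in UT, and 18.51 and 23.61 in H2O2. The pileups were 66 and 90 in KO, 49 and 52 in UT, and 200 and 264 in H2O2. The H2O2 peaks, at nt 1999 to 2105 and nt 2160 to 2279, did not overlap each other and were joined through peaks of UT replicate 2 and KO replicate 2 that spanned the gap, so DDX56 was not counted as repeated within H2O2. A second transcript, NM_001257189, showed the same peaks at nt 1839 to 2159 and repeats the same signal.

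DDX51, a helicase of large ribosomal subunit assembly, had a region at nt 255 to 501 of NM_175066 in 4 lists, with a fold of 2.28 in WT replicate 2, 14.07 in H2O2 replicate 2, and 11.31 and 7.73 in Starve. The other regions in 3 lists belonged to DDX18, DDX39A, DDX46, DDX55 and DHX36, on 7 transcripts. The DDX18 region at nt 18 to 155 was in WT replicate 2, KO replicate 1 and UT replicate 1, with folds of 3.61, 3.28 and 6.07, and did not repeat within a condition.

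**Figure D2:**
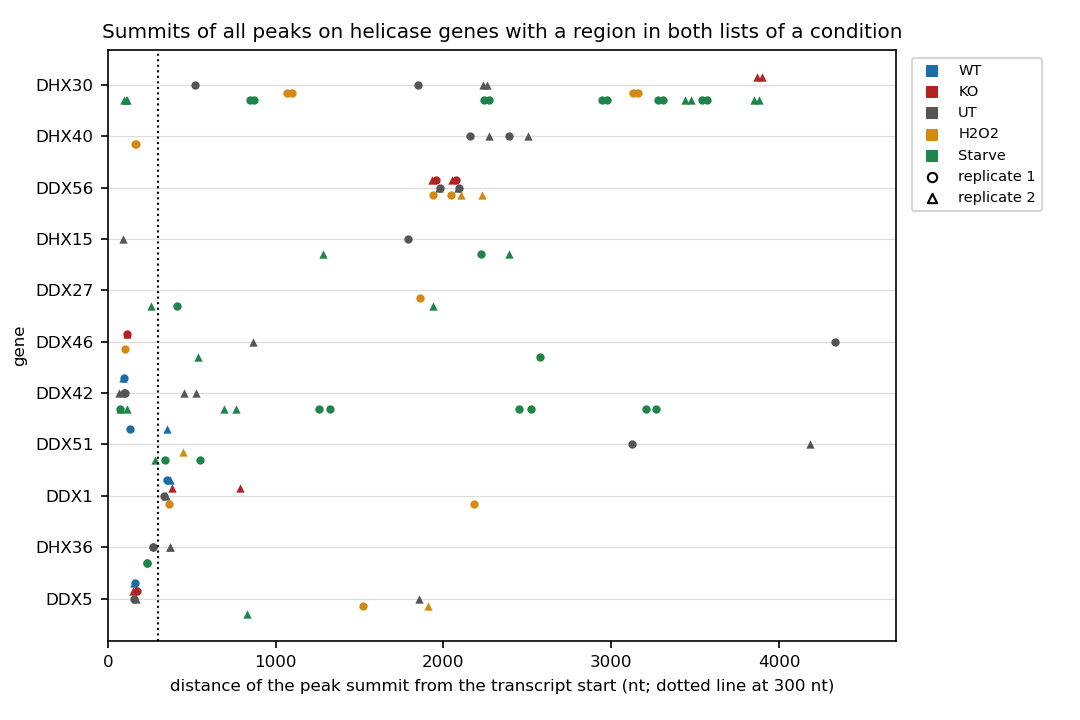
Summit of every peak on the 11 helicase genes with a repeated region, as the distance from the transcript start in nt; colours mark conditions, circles replicate 1 and triangles replicate 2, and transcripts of 1 gene share a row. Summits of DDX5 and DDX42 cluster left of the dotted 300 nt line in several conditions, those of DDX56 lie between 1930 and 2227 nt, and those of DHX30 spread along the transcript.

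The comparison of KO with WT asks which m1A sites depend on ALKBH3. Of 17 helicase genes with a region in these lists, 2 had a region that both KO lists held and the WT lists lacked (11.8%, against 18.9% of all genes): DDX46 and DDX56. The lower of their KO folds was 3.52 and 2.65, and neither gene had any WT peak. The reverse, a region that both WT lists held and the KO lists lacked, was found in 1 of 17 (5.88%, against 5.2% of all genes), DDX42, with folds of 10.09 and 4.35. DDX5 had its region in all 4 lists. The share of helicases with a KO-only region lay below the background and that with a WT-only region near it, on 2 genes and 1 gene. With 2 lists against 2, the smallest exact p for a single region is 0.333, so no region was tested. KO-only helicases numbered 0 with peaks of a fold of 4 or more, 0 with an equal number of top peaks per list, 6 without KO replicate 1 and 4 without KO replicate 2. WT-only helicases numbered 3 without WT replicate 1, 6 without WT replicate 2 and 2 without KO replicate 2.

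For oxidative stress, 39 helicase genes had a region in the H2O2 or UT lists. None had a region in both H2O2 lists and neither UT list (0 of 39, against 2.33% of all genes). In the other direction, 4 of 39 had a region in both UT lists and neither H2O2 list (10.3%, against 5.49% of all genes): DDX42, DHX40, DDX5 and DHX36. DDX42 had folds of 9.61 and 8.92 in UT, the highest lower fold of these genes, and no H2O2 peak. The DHX40 region at nt 2326 to 2584 of NM_024612 had folds of 9.88 and 5.24, but its replicate peaks overlapped by 6 nt. DHX36, which unwinds G-quadruplexes, had folds of 2.99 and 7.02 at nt 228 to 411, with an overlap of 16 nt. When shared peaks had to overlap by 50% of the shorter peak, 2 of the 4 genes were left. The H2O2-only count was 3 without H2O2 replicate 1 and 18 without H2O2 replicate 2, and the UT-only count was 19 without UT replicate 1 and 20 without UT replicate 2.

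For serum withdrawal, 39 helicase genes had a region in the Starve or UT lists. In 4 of 39 a region was in both Starve lists and neither UT list (10.3%, against 5.34% of all genes): DDX51, DDX27, DHX30 and DHX15. DDX51 had folds of 11.31 and 7.73 at nt 255 to 433. DDX27, a helicase of ribosomal RNA maturation, had folds of 6.42 and 18.37 at nt 193 to 475, and its summits lay 151 nt apart. The DHX30 region at nt 3411 to 3607 of NM_138615 had folds of 4.94 and 4.14, and that of DHX15, which takes the spliceosome apart after splicing, had folds of 3.09 and 12.19 at nt 2173 to 2450. The replicate peaks of DHX30 and DHX15 overlapped by 28 and 47 nt, less than 50% of the shorter peak, and 2 of the 4 genes were left when 50% was required. DDX51, DHX30 and DHX15 had other peaks in the UT lists, so their genes were not free of peaks there. The count was 19 without Starve replicate 1 and 25 without Starve replicate 2.

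In the opposite direction, 4 of 39 had a region in both UT lists and neither Starve list (10.3%, against 4.06% of all genes): DHX40, DDX56, DDX1 and DDX5. DDX1 had folds of 4.45 and 6.93, and DDX56 had 4.53 and 6.31, and neither had a Starve peak. DDX42 was the only member with a region in all 4 of these lists. The count was 19 without UT replicate 1 and 21 without UT replicate 2. Because the H2O2 and Starve comparisons share the UT lists, DHX40 and DDX5 appear as UT-only in both for 1 and the same pair of UT peaks.

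UT and WT are both untreated wild-type cells by the labels, so their difference shows what separates 2 such sets of lists without a named treatment. Of 34 helicase genes, 3 had a region that both UT lists held and the WT lists lacked (8.82%, against 6.58% of all genes): DHX40, DDX56 and DHX36. None had the reverse (0 of 34, against 2.98% of all genes). DDX1, DDX42 and DDX5 had regions in all 4 lists. The UT-only count was 1 under the 50% overlap, 0 with an equal number of top peaks per list, 23 without UT replicate 1 and 19 without UT replicate 2. The reverse count was 2 without WT replicate 1 and 4 without WT replicate 2.

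**Figure D3:**
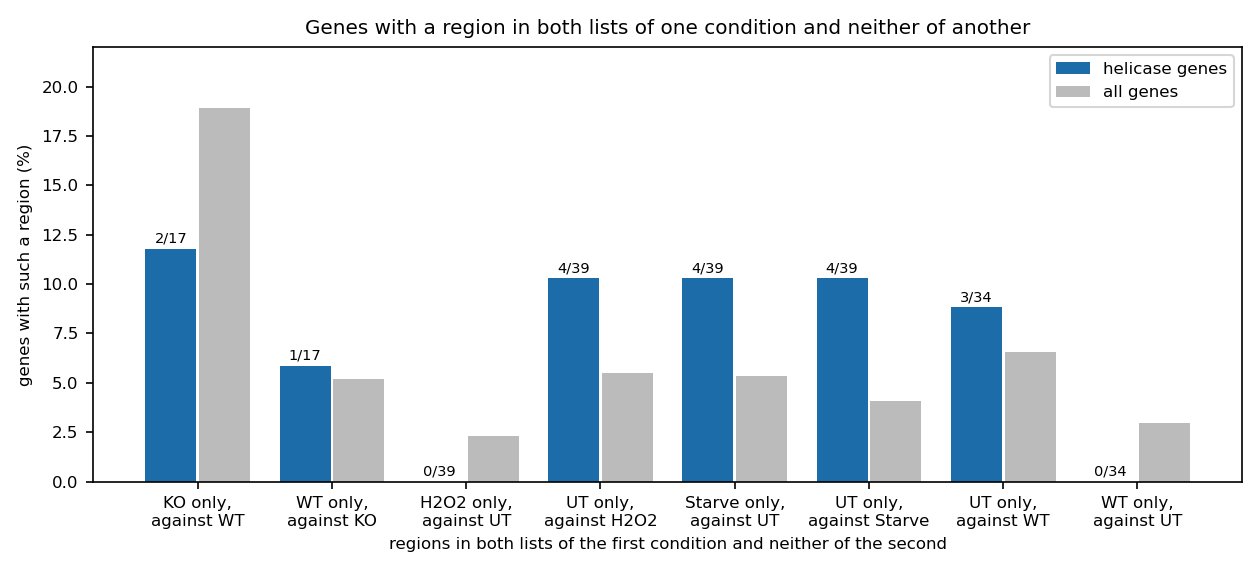
Share of genes with a region in both lists of one condition and neither list of the other, in percent of the genes with a region in those lists, for helicases (blue, with counts) and all genes (grey). The helicase shares rest on 0 to 4 genes; the KO-only bar lies below the grey one and the UT-only and Starve-only bars above it.

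On transcript position, a repeated region counted as near the start when the mean of its 2 replicate summits lay within 300 nt. Helicase regions did so in 2 of 3 cases in WT (66.7%, Wilson 95% interval 20.8 to 93.9%), against 83.1% of all repeated regions. In KO it was 2 of 4 (50.0%, 15.0 to 85.0%), against 76.2%. In UT it was 2 of 9 (22.2%, 6.32 to 54.7%), against 64.4%, and in Starve 1 of 6 (16.7%, 3.01 to 56.4%), against 62.3%. By this rule the UT and Starve intervals lie below the share of all repeated regions. The 9 and 6 regions, however, include isoforms that repeat a signal. With 1 region per gene the shares were 2 of 6 in UT (33.3%, 9.68 to 70.0%) and 1 of 5 in Starve (20%, 3.62 to 62.4%), against 67.4% and 65.8% of genes, and the UT interval then included the share of all genes. DDX1, DHX36, DDX27 and DDX51 had repeated regions with a summit between nt 335 and nt 409 in at least 1 list. The other summit was within 300 nt for DHX36 in UT (nt 268 beside nt 370). It was also so for DDX27 (nt 258 beside nt 409) and DDX51 (nt 278 beside nt 337) in Starve. Their means lay past 300 nt, so they count as far here. The base composition above counted them as near, by 1 summit. With a limit of 500 nt, the share was 100% in WT, 55.6% in UT and 50% in Starve, and it stayed at 50% in KO. The intervals cover counting error only.

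For regions found in a single list, the share near the start is given for helicases beside that of all genes, and the differences were not tested. In WT it was 7 of 19 (36.8%) against 58.0%, and in KO 7 of 14 (50.0%) against 63.9%. In UT it was 14 of 62 (22.6%) against 28.0%, in H2O2 6 of 59 (10.2%) against 32.4%, and in Starve 20 of 107 (18.7%) against 24.8%. Counted by peak, the share near the start was lower for helicases in each of the 10 lists. Isoforms repeat 1 signal in these counts of regions and peaks, and they were not reduced to 1 per gene. In WT replicate 1, DDX11 gave 5 and DDX3X 6 of the 18 helicase peaks, spread over isoforms and all past 300 nt. It was 33.3% against 55.4% and 71.4% against 73.9% in WT, and 62.5% against 72.7% and 42.9% against 71.6% in KO. In UT it was 26.8% against 37.6% and 23.1% against 31.5%, and in Starve 22.6% against 32.0% and 17.5% against 29.2%. In H2O2 it was 12.8% against 34.6% in replicate 1, and in replicate 2 none of the 12 helicase peaks lay near the start, against 45.0%. Higher shares in WT and KO than in the other conditions were thus shared with all peaks.

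Demethylase treatment of the IP RNA removes m1A, so reverse transcription is no longer stopped there. Coverage of the treated and IP libraries was deposited in 10 nt windows for WT and KO, and it covered 3 helicases: DDX5 in all 4 files, DDX42 in both WT files and DDX46 in both KO files. The coverage of a region sums to about 200 in each library, so the windows show the shape of a profile and not its level. Under a fixed sum, a gain in some windows comes with a loss in others, so the gains and losses given below are not separate observations. The treated columns of the 2 files of a genotype were the same profile up to a constant factor in 771 of 774 KO transcripts and 352 of 353 WT transcripts. The files of each genotype therefore gave 1 treated profile and 2 IP libraries. The labels list 2 treated libraries per genotype, and a pool of these 2 would look the same as 1 of them. The profile is called 1 treated library below. No helicase window was on the same grid in all 4 files, so the WT and KO profiles are given side by side without a test of their difference. Within a genotype, the 2 files shared helicase windows only for DDX5 in KO (52) and DDX42 in WT (22). DDX5 in WT and DDX46 in KO were therefore not fitted.

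In WT, DDX5 coverage began earlier after treatment than in the IP libraries. Treated coverage was above 50% of its maximum from nt 103 to 202 (file 1), and IP coverage from nt 118 to 227 in replicate 1 and nt 120 to 224 in replicate 2. The largest gain lay at nt 108 to 117 in file 1, where treated coverage was 8.97 against 2.7 in the IP, and at nt 110 to 119 in file 2, with 9.3 against 3.25. The largest loss lay 100 nt downstream, at nt 208 to 217, with 0.39 against 7.73, and at nt 210 to 219, with 0.4 against 7.18. Both edges of the treated profile were steep. In file 1 it rose from 0.59 at nt 93 to 102 to 8.97 at nt 108 to 117. It fell from 9.66 at nt 193 to 202 to 0.39 at nt 208 to 217, and the origin of these edges was not tested. The windows of largest gain and loss were picked as the extremes of each file, so the sign of their differences was fixed by that choice. The coverage centre over nt 62 to 229 was nt 155.0 and 156.9 for the treated profile and nt 164.6 and 168.6 for the IP. The WT windows of DDX5 lay on different grids in the 2 files, so these differences were not tested.

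In KO, the DDX5 profiles of treated and IP libraries began at about the same place. Treated coverage was above 50% of its maximum from nt 122 to 226, and IP coverage started at nt 122 in replicate 1 and nt 117 in replicate 2. The centre over the same nt 62 to 229 was nt 165.7 for the treated profile and nt 167.8 and 161.2 for the IP, so the treated value lay between the replicates. The largest gains were 1.64 and 1.69 coverage units, against 6.27 and 6.05 in WT. At the 3′ side, IP coverage rose again towards nt 326, the stretch that the KO peaks included and the WT peaks did not. At nt 287 to 296 the treated coverage was 0.53 and the IP coverage 2.17 and 2.14. The log2 difference there was -1.04 (limma on log2 of coverage plus 1). This window was picked as the DDX5 window with the lowest unadjusted p in KO. Windows from nt 282 to 326 had log2 differences between -1.1 and -0.89. With no replicate on the treated side, no error is given for them.

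Over the KO windows, limma called 0 of 27983 (0.0%) after Benjamini-Hochberg adjustment, with 5000 at an unadjusted p under 0.05. Of the 52 DDX5 windows none was called, and 13, all at nt 257 to 326 and all lower after treatment, had an unadjusted p under 0.05. In WT, limma called 0 of 12748 windows (0.0%), with 2770 at an unadjusted p under 0.05. None of the 21 DDX42 windows tested was among either. With 1 treated library the fit also called 0 of 200 changed windows planted in simulated data of each genotype, so its count of 0 says little. When the 2 files were instead entered as pairs, 12 DDX5 windows in KO were called, all lower after treatment, but both pairs contain the same treated library.

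For DDX42 in WT, the IP replicates disagreed with each other. Treated coverage was above 50% of its maximum from nt 16 to 100, and IP coverage from nt 36 to 110 in replicate 1 and nt 16 to 105 in replicate 2. The largest gain was 9.29 at nt 31 to 40 in file 1 and 1.53 at nt 41 to 50 in file 2. The centre over nt 1 to 115 was nt 59.7 for the treated profile, between nt 68.5 and 57.1 for the IP, so the difference was no larger than the spread between replicates. In KO, the first block of DDX46 coverage began and ended earlier after treatment than in both IP libraries. Its centre over nt 2 to 160 was nt 93.2 and 93.8 for the treated profile and nt 100.6 and 102.4 for the IP. The largest gain was 3.5 at nt 56 to 65 and 3.88 at nt 42 to 51, and the largest loss -4.41 at nt 141 to 150 and -4.88 at nt 142 to 151. Further on, file 2 extended to nt 231 and showed a second block of treated coverage, for example 5.2 against 3.04 in the IP at nt 197 to 206, so treated coverage there was above 50% of its maximum up to nt 231 and IP coverage up to nt 161. File 1 ended at nt 160 and does not cover that stretch. With 1 treated library, these positions have no replicate error on the treated side.

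**Figure D4:**
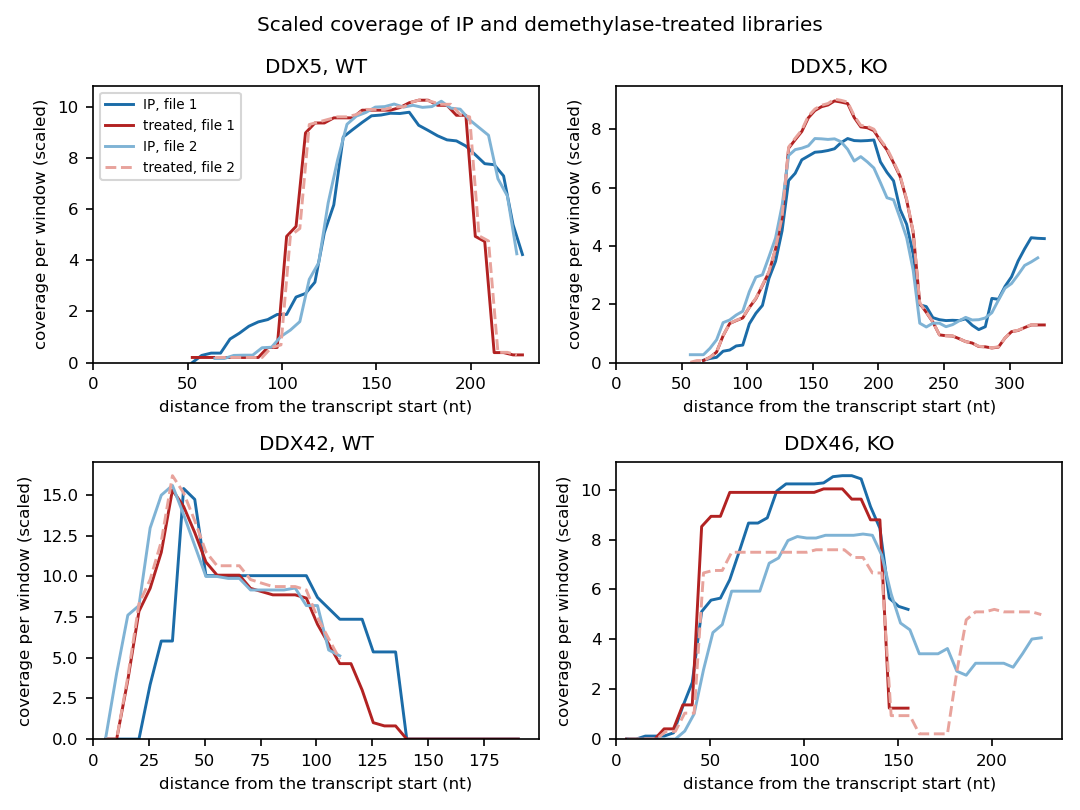
Scaled coverage of 10 nt windows against the distance from the transcript start in nt, for the helicases with windowed data; blue lines are the IP libraries and red lines the treated profile as it stands in each file. The treated profile of DDX5 rises before both IP lines in WT and with them in KO; the DDX42 IP lines differ from each other, and the DDX46 treated profile rises and first falls before both IP lines, then rises again in file 2 beyond nt 177.

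Some members share sequence with near-identical copies, so reads could have been split or misassigned between them: DDX19A with DDX19B, DDX39A with DDX39B, DDX3X with DDX3Y, DDX5 with DDX17 in part, and DDX11 with its pseudogene copies. DDX19B had peaks in 2 lists, KO replicate 2 and UT replicate 1, while DDX19A had peaks in 4, sharing UT replicate 1. DDX11 had peaks in 3 lists, one from each of WT, H2O2 and Starve, with folds of 3.92, 19.61 and 14.96. No label or file header says how reads with several placements were handled.

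Among 22 RNA helicases whose symbols do not start with DDX or DHX, 13 had a peak. In 3 of them a peak was called in 5 or more lists: SNRNP200 and UPF1 in 7 each and HELZ in 5. SNRNP200, the helicase that unwinds U4 from U6 in the spliceosome, had a repeated region in KO. UPF1, the helicase of nonsense-mediated decay, had one in UT. The DDX and DHX members had a repeated region in any condition on 11 of 54 genes. The same share over all genes was not computed, so this count has no baseline. Its difference from the 22 helicases with other symbols was not tested.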

How the data were processed

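Anti-m1A IP peak lists of 5 conditions, with 2 replicates each, and 4 windowed coverage files were analysed. Trim Galore, HISAT, MACS2 and the build hg19 stand in the submitters' processing notes, with no versions or order. Peaks were called per replicate with MACS2 on RefSeq transcripts, per the file headers. Each deposited peak has a fold enrichment, a pileup (a coverage signal at the summit) and its −log10 p-value and q-value. The windowed coverage signal was scaled by the authors to sum to about 200 per region, and a deposited score column holds the difference of treated and IP coverage. No source used here says which input served which list. The lists of UT were assigned by their own names, although the descriptions of those samples point to the Starve lists and peak names inside the UT lists carry the letters WT, so every UT comparison rests on the file naming.

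Transcripts were matched to genes in the RefSeq table (GRCh38.p14): 17019 of 17315 (98.3%). Peaks overlapping by 1 nt or more on a transcript formed regions, counted by gene, with no test on peaks. Shares carry Wilson 95% intervals (statsmodels 0.14.6). Windows were fitted with limma 3.58.1 (R 4.3.3) on log2(coverage + 1), with two-sided tests and Benjamini-Hochberg adjustment at 0.05 over all windows. The design asked for 4 groups in 1 fit. The treated columns of both files of a genotype hold 1 profile in nearly all transcripts (a log2 ratio with an SD under 1e-06). Each genotype was therefore fitted alone, over the windows shared by its 2 files, with 1 treated profile and 2 IP libraries. Both procedures were tested on simulated data. Named genes were those with a region in both lists of one condition and neither of another, those with a region in 8 or more lists (none), those in the windowed files and those without a peak. Further genes outside these rules, among them DDX11, DDX18, DDX52, DDX55, SNRNP200 and UPF1, were named with their values already seen. Members, role lists and tests were chosen with earlier results of these data known. Alternatives were a fold of 4 or more, a 50% overlap, equal list lengths, other distance limits, other pseudocounts, a coverage filter, a replicate block and leaving out each list.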

Additional observations from a re-analysis of the deposited data

How the results depend on the processing

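Of 63 alternatives other than left-out lists, 50 kept their value within 1.5 times or within the counting interval and 13 moved. Those that kept it include counts that stayed at 0: repeated H2O2 helicases, H2O2-only, WT-only against UT and most settings of the window fit. The count of repeated H2O2 helicases could not rise under these stricter settings, so the 50 overstate how stable the results are. With a fold of 4 or more, KO-only helicases numbered 0 and repeated KO helicases 1, and the share near the start was 100% in WT and 100% in KO. With a 50% overlap, UT-only helicases numbered 2 against H2O2 and 1 against WT, Starve-only 2, and repeated Starve helicases 3. With equal list lengths, KO-only and UT-only against WT both numbered 0. At 500 nt, the share near the start was 100% in WT, 55.6% in UT and 50% in Starve. The numbers of the files are shared by treated and IP columns, but both pairs then contain the same treated library: the replicate block called 12 DDX5 windows in KO against 0 without it, and 0 DDX42 windows in WT. A pseudocount of 0.1 called 10 higher and 747 lower WT windows over all genes but 0 of DDX42.

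Leaving out a list makes the other list of that condition decide alone, and 27 of 50 such values moved. The lowest and highest were 2 and 6 for KO-only, 1 and 6 for WT-only against KO, 0 and 18 for H2O2-only, 4 and 20 for UT-only against H2O2, 4 and 25 for Starve-only, 4 and 21 for UT-only against Starve, 3 and 23 for UT-only against WT, and 0 and 4 for WT-only against UT. Genes with a region ranged from 6 to 8 in WT, 6 to 7 in KO, 24 to 24 in UT, 6 to 24 in H2O2 and 23 to 26 in Starve. Shares near the start ranged from 33.3 to 71.4% in WT, 42.9 to 62.5% in KO, 23.1 to 26.8% in UT and 17.5 to 22.6% in Starve. Leaving out a library of the window fit left no residual degrees of freedom and was not run. Library depth is not in the files, and its part in which regions repeated was not tested.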
